A study of Mus musculus with 6 samples.

Results

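Nkx2-1, Lhx6, Lhx8, Sox6, Satb1, Maf, Npas1 and Zeb2 are transcription factor genes of the medial ganglionic eminence, a proliferative swelling of the embryonic ventral forebrain. They were chosen by name for their place in this lineage, and all 8 were found among the 33084 genes of the deposited count table. The libraries came from mouse forebrains taken at E15.5 (embryonic day 15.5), 3 labelled wt (controls) and 3 labelled Dyrk1a<DlxCre/+> (mutants). The mutants are described as a conditional inactivation of the kinase gene Dyrk1a in the Dlx5 domain, which includes the GABAergic neurons of the ventral forebrain, and the + of the genotype label stands for an unaltered copy. The labels give neither the alleles the controls carried beyond wt nor the litters, so p-values measure the spread between these libraries, which may be technical. Forebrain was dissected, not the eminence alone, and a lower share of eminence-derived cells cannot be told apart from less RNA per cell.

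The medial ganglionic eminence gives rise to the parvalbumin and somatostatin interneurons of the cortex and striatum, and to GABAergic and cholinergic neurons of the pallidum and basal forebrain. Sonic hedgehog signalling keeps Nkx2-1 on in its dividing progenitors, and the NKX2-1 protein switches on Lhx6 and Lhx8. LHX6 acts upstream of Sox6, Satb1 and Maf in migrating interneurons, while ZEB2 represses Nkx2-1 in those bound for the cortex. Lhx6 is largely restricted to this lineage in the telencephalon. Nkx2-1 is also made in the hypothalamus, and Sox6, Satb1 and Zeb2 are also made in the developing cortex.

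None of the 8 genes was separated from the spread between libraries by genotype. Of the 8, 4 lay above 0 (Nkx2-1, Lhx6, Lhx8 and Npas1) and 4 below (Sox6, Satb1, Maf and Zeb2), with log2 fold changes, mutant over control, from -0.16 to 0.32. In both genotypes the replicate 3 libraries held the most Nkx2-1, Lhx8 and Sox6 and the least Npas1 and Zeb2. The ratio of Lhx6 to the mean of 7 pan-GABAergic genes varied by 0.11 log2 units over the 6 libraries. That measure was chosen after the data were seen, and Lhx6 was singled out among the 8 by its value.

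Since NKX2-1 is the factor placed first in this cascade, the promoters of the 8 genes, its own included, were searched for the motif TNAAGTG, bound by NKX2 homeodomain proteins. RefSeq promoter windows (GRCm38.p6, 250 bases before to 50 after a start) were matched for 7 of the 8 genes, 21 windows in all, and Maf was not matched. On either strand, 4 of the 21 windows held the motif, 1 of the 3 of Lhx6 and 3 of the 6 of Sox6, against 11.5% of all 32851 windows. These stretches are shown because they hold the letters of an NKX2 motif beside RefSeq starts of Lhx6 and Sox6. Except for the first of Sox6, they lie inside the annotated gene. Capitals mark the motif, which lies on the sense strand in each, and all are read 5′ to 3′ on the reverse strand of the chromosome.
Lhx6, chr2:36104178-36104204: gagccacgggTTAAGTGcagggagagg
Sox6, chr7:116038964-116038990: cttcgtttctTTAAGTGcgatagattt
Sox6, chr7:116031102-116031128: aataaaaaggTCAAGTGgttacgttcc
Sox6, chr7:115846272-115846298: agcagctgacTTAAGTGttgaaccatc
Counted from the start site, the first motif base was at -134 in Lhx6, and at -236, -71 and -148 in the Sox6 windows in the order shown. The E-box CAGGTG, which ZEB2 binds, was in 4 of the 21 windows against 20.2% of all windows, and the homeodomain motif TAATTA in 0 of 21 against 5.29%. These are matches of letters and no measure of binding.

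Each library held between 24646616 and 38315004 counts. Levels below are CPM, counts normalised to library size, scaled by TMM, a method that evens out differences in library composition. Of 19616 genes tested, 0 passed an adjusted p of 0.05 (edgeR's quasi-likelihood F test, Benjamini-Hochberg), with 376 at an unadjusted p under 0.05 (DESeq2 called 0, with 261, and limma-voom called 0, with 393). The replicate 3 libraries of both genotypes stood apart from the other 4 in 34.4% of tested genes, so differences are also given apart for replicates 1 and 2 and for replicate 3. Dyrk1a itself averaged 177 ± 7.58 CPM over the controls against 175 ± 14.6 CPM over the mutants (SD, n = 3 per group). Its count covers the whole gene and does not single out a deleted part.

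Of the 8 genes, 0 passed the threshold, where 0% of all tested genes did, and 0 were at an unadjusted p under 0.05, against 1.92% of all genes (1.19% higher and 0.729% lower in mutants). In 0 of the 8 did the mutant libraries lie wholly outside the control range, against 6.89% of all genes (3.19% higher and 3.7% lower). Of all genes 47.5% lay above 0, as did 4 of the 8. Their median log2 fold change was 0.02, beside -0.01 over all genes tested, and -0.05 with libraries scaled to the pan-GABAergic genes. Adjusted p was 0.9999 for each of the 8, by the same edgeR test.

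**Figure D1:**
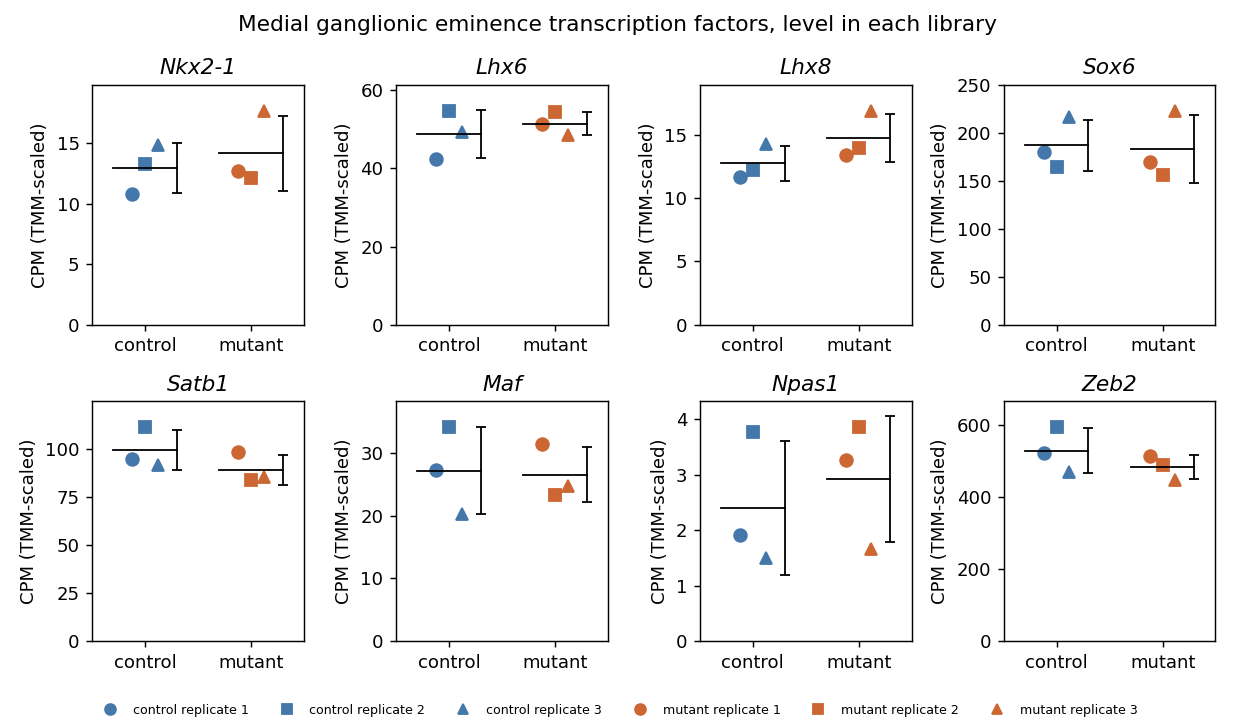
Level of each gene in CPM (TMM-scaled, vertical axis from 0) in the 3 control and 3 mutant libraries, with the mean (line) and SD (bar) of each group and the replicate number as the marker shape. The groups overlap in all 8 panels, and the replicate 3 triangles are the highest points for Nkx2-1, Lhx8 and Sox6 and the lowest for Npas1 and Zeb2.

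Nkx2-1 encodes the homeodomain factor that gives the eminence its identity (ENSMUSG00000001496, GRCm38 chromosome 12, 56531958 to 56536908, reverse strand). It stood at 10.8, 13.3 and 14.8 CPM in control replicates 1, 2 and 3, and at 12.7, 12.1 and 17.7 CPM in mutant replicates 1, 2 and 3. The highest library of each group was replicate 3, and 2 of the 3 mutants lay inside the control range. Mutants over controls, the log2 fold change was 0.13 ± 0.18 (SE), with a 95% interval from a change of -18.0% to one of 45.3%. Leaving out mutant replicate 3 alone turned the sign, to -0.06, while with only replicates 1 and 2 of both genotypes the value was 0.05.

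Lhx6 encodes a LIM-homeodomain factor needed for the migration and subtype identity of interneurons from this eminence (ENSMUSG00000026890, chromosome 2, 36081953 to 36105408, reverse strand). It stood at 42.5, 54.8 and 49.4 CPM in the controls and 51.3, 54.4 and 48.5 CPM in the mutants. All 3 mutants fell inside the control range, which control replicate 1 opened at the low end. Its log2 fold change was 0.07 ± 0.11 (SE), with an interval from -11.4% to 25.1%, and -0.02 without control replicate 1. Each library held 1315 to 1873 counts of Lhx6.

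Lhx8 encodes a close relative of LHX6 that directs the cholinergic neurons of the basal forebrain (ENSMUSG00000096225, chromosome 3, 154306294 to 154330659, reverse strand). It stood at 11.7, 12.2 and 14.3 CPM in the controls and 13.4, 14.0 and 16.9 CPM in the mutants. Mutant replicate 3 lay above every control, and the other mutants lay inside the control range. Its log2 fold change of 0.21 ± 0.14 (SE) had the smallest p of the 8, which ranked 1838 among the 19616 genes. The interval ran from -7.01% to 44.1%. Taken apart, replicates 1 and 2 gave 0.19 and replicate 3 gave 0.24, and all 17 alternative analyses gave values above 0 (0.10 to 0.31, smallest adjusted p = 0.554). Those analyses reuse the same libraries, and Satb1, Npas1 and Zeb2 also kept their direction in all 17.

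Sox6 encodes an SRY-box factor that acts in the positioning and maturation of these interneurons (ENSMUSG00000051910, chromosome 7, 115470872 to 116038796, reverse strand). It stood at 180, 165 and 217 CPM in the controls and 169, 156 and 223 CPM in the mutants. The replicate 3 libraries were the highest in both groups, and of the other mutants 1 lay just above and 1 below the lowest control. Sox6 had a log2 fold change of -0.03 ± 0.15 (SE), with an interval from -23.0% to 24.0%. Leaving out control replicate 3 gave 0.09, and leaving out mutant replicate 3 gave -0.20.

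Satb1 encodes a chromatin organiser that promotes the maturation of somatostatin interneurons (ENSMUSG00000023927, chromosome 17, 51736187 to 51833290, reverse strand). It stood at 95.03, 112 and 92.0 CPM in the controls and 98.3, 83.7 and 85.5 CPM in the mutants. Of the mutants, 2 lay below every control and the third lay among them. For Satb1 the log2 fold change was -0.16 ± 0.11 (SE), with an interval from -24.1% to 5.99%, and it lay between -0.23 and -0.07 over the alternative analyses. Without control replicate 2, the highest library, it was -0.07. GENCODE places 5 other genes inside it on the same strand, all of the class TEC (awaiting experimental evidence), whose separate counts came to 41.9% of those of Satb1, so the count of Satb1 is uncertain. Their summed level was 41.1 ± 0.908 CPM over the controls and 37.5 ± 5.11 CPM over the mutants (SD, n = 3 per group), and the mutant range of 31.8 to 41.7 CPM overlapped the control range of 40.1 to 41.7 CPM.

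Maf encodes a leucine-zipper factor that shifts the fate and number of somatostatin and parvalbumin interneurons (ENSMUSG00000055435, chromosome 8, 115682942 to 115707794, reverse strand). It stood at 27.2, 34.1 and 20.2 CPM in the controls and 31.5, 23.3 and 24.7 CPM in the mutants. The controls spanned a wider range than the mutants and held both the highest and the lowest library. The log2 fold change was -0.03 ± 0.19 (SE), with an interval from -27.7% to 32.5%. Replicates 1 and 2 alone gave -0.17 and replicate 3 alone 0.29, of opposite sign. Macrophages and microglia also express Maf, and the 10 microglial markers summed to 78.1 to 99.9 CPM in controls and 79.6 to 98.2 CPM in mutants. Their part in the Maf level was not tested.

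Npas1 encodes a basic helix-loop-helix PAS repressor found in pallidal neurons and interneurons (ENSMUSG00000001988, chromosome 7, 16455721 to 16477728, reverse strand). It was the scarcest of the 8, with 45 to 98 counts in a library. It stood at 1.92, 3.77 and 1.502 CPM in the controls and 3.27, 3.86 and 1.66 CPM in the mutants. Within each group the lowest library was replicate 3 and the highest replicate 2. The log2 fold change of 0.32 ± 0.40 (SE) had an interval from -33.1% to 132%. Single libraries moved it: it was 0.78 with control replicate 2 left out, 0.61 with mutant replicate 3 left out, and 0.07 with either control replicate 3 or mutant replicate 2 left out.

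Zeb2 encodes a zinc-finger and homeodomain repressor that guides interneurons to the cortex rather than the striatum (ENSMUSG00000026872, chromosome 2, 44983632 to 45117395, reverse strand). It was the most abundant of the 8, at 523, 593 and 468 CPM in the controls and 514, 488 and 446 CPM in the mutants. Only mutant replicate 3 lay below every control. Zeb2 had a log2 fold change of -0.13 ± 0.11 (SE), with an interval from -22.6% to 7.88%. It was -0.04 without control replicate 2, the highest library, and -0.02 with the GC content and transcript length trend of each library removed. Its antisense partner Zeb2os had 0.624% as many counts.

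Within replicates 1 and 2 the mutant minus control difference of mean log2 CPM was 0.05 for Nkx2-1, 0.13 for Lhx6, -0.08 for Sox6, -0.18 for Satb1, 0.39 for Npas1 and -0.15 for Zeb2. Within replicate 3, with 1 library of each genotype and no test, the same genes had 0.25, -0.03, 0.04, -0.11, 0.14 and -0.07. Lhx6 and Sox6, like Maf, thus had differences of opposite sign in the 2 sets of libraries.

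**Figure D2:**
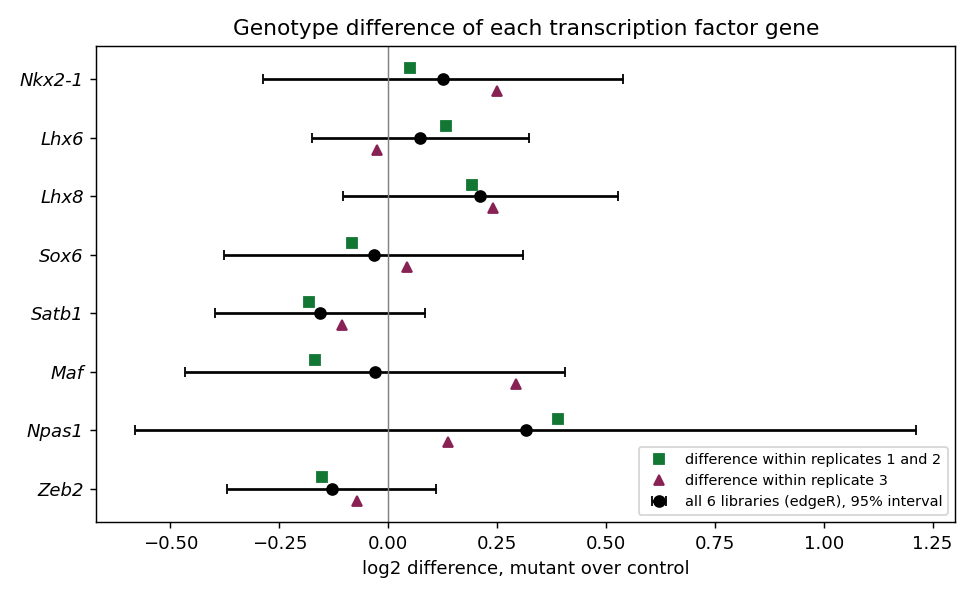
Log2 difference, mutant over control, of each gene from edgeR over all 6 libraries with its 95% interval (black), and as the difference of mean log2 CPM within replicates 1 and 2 (squares) and within replicate 3 (triangles). Every interval holds 0, and for Lhx6, Sox6 and Maf the squares and triangles lie on opposite sides of 0.

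Levels were compared between genes per length, as the mean over the 6 libraries of CPM per kb of merged exons. Zeb2 led with 25.3 ± 2.58, followed by Sox6 at 12.5 ± 1.89, Lhx6 at 10.4 ± 0.946, Lhx8 at 5.42 ± 0.728, Satb1 at 4.96 ± 0.529, Nkx2-1 at 4.77 ± 0.853, Maf at 3.26 ± 0.630 and Npas1 at 0.885 ± 0.362 (SD, n = 6). Zeb2 and Npas1 stood clear of their neighbours in every library, and so did Lhx6 from Lhx8. The ranges of Sox6 and Lhx6 overlapped, as did those of Lhx8, Satb1 and Nkx2-1, and of Nkx2-1 and Maf. With the longest transcript as the length, Satb1 moved up to a mean of 15.1 CPM per kb, past Lhx6 at 14.4. The ranges of these 2 genes overlapped, and Satb1 was the higher in 4 of the 6 libraries. Satb1 moved because its merged exons are 19027 bases long and its longest transcript 6243. Within libraries, the per-length level of Nkx2-1 was 0.449 ± 0.0525 times that of Lhx6 in controls and 0.469 ± 0.128 times in mutants (SD, n = 3 each). That of Lhx8 was 0.498 ± 0.0666 and 0.547 ± 0.0983 times.

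**Figure D3:**
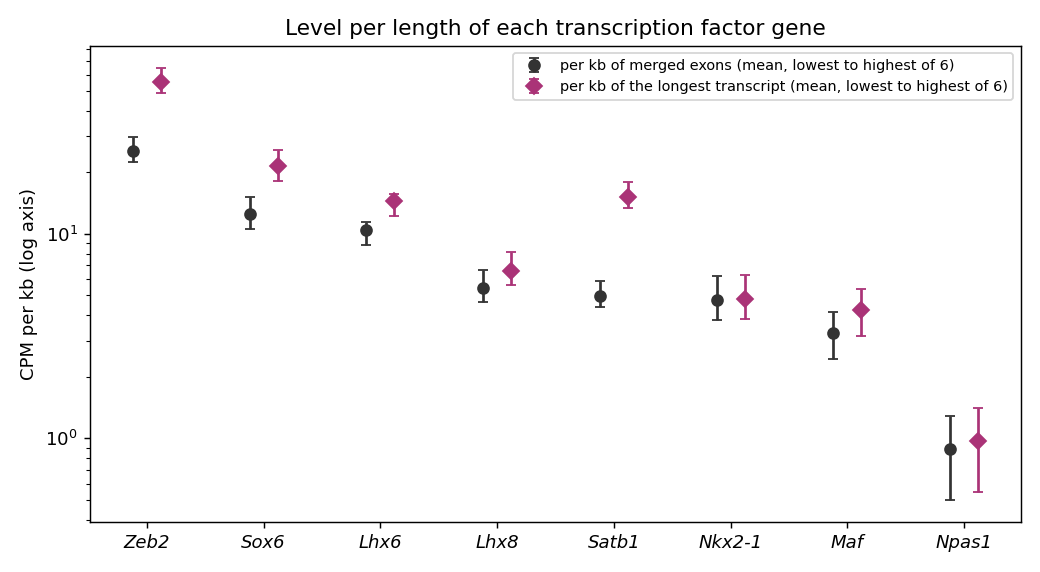
Level of each gene as CPM per kb (log axis), by merged exon length (circles) and by longest transcript (diamonds), with the lowest and highest of the 6 libraries as bars. The length used changes the place of Satb1 most, from 4.96 to 15.1 CPM per kb.

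In both genotypes the replicate 3 libraries differed from the other 4, and the 8 genes divided by it. As log2 differences of replicate 3 from the mean of the other libraries of its genotype, controls then mutants, Nkx2-1 had 0.31 and 0.51, Sox6 0.33 and 0.46, and Lhx8 0.26 and 0.30. Npas1 was at -0.81 and -1.07 on the same scale and Zeb2 at -0.25 and -0.17. In these 5 genes both replicate 3 libraries lay wholly above (3 genes) or below (2 genes) the other 4, as 17.3% and 17.1% of all tested genes did. Satb1 had -0.16 and -0.09 and Maf -0.59 and -0.13, with overlapping ranges. Lhx6 had 0.03 and -0.12, the only one of the 8 with opposite signs in the 2 genotypes.

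Some marker lists moved along the same division of libraries, and others moved little in their mean. Proliferating cell genes were 0.71 and 0.73 log2 units higher in replicate 3 of controls and mutants, with 9 of 9 above the other libraries, and summed to 895 to 1565 CPM in controls and 969 to 1638 CPM in mutants. Radial glia genes were 0.36 and 0.34 higher (5 of 8 above, summed 1065 to 1378 CPM in controls and 1152 to 1422 CPM in mutants), and the hypothalamus and preoptic genes, tissue that also makes Nkx2-1, were 0.28 and 0.44 higher (7 of 11 above). That list summed to 103 to 118 CPM in controls and 94.8 to 131 CPM in mutants over its 11 genes, with its highest library, mutant replicate 3, also the highest in Nkx2-1. Lhx9, at 60.1 to 80.4 CPM in each library and named here after its values were seen, made up most of that sum, while Rax, a defining marker of early hypothalamus, was at 0.354 to 1.22 CPM. Oligodendrocyte precursor genes, cells that also make Sox6, were lower in replicate 3, at -0.50 and -0.73 (4 of 5 below), and their 5 genes summed to 80.2 to 108 CPM in controls and 78.8 to 113 CPM in mutants. Microglial genes, of cells that also make Maf, were at -0.19 and -0.26 (3 of 10 below). Mural and meningeal genes were at -0.29 and -0.04 (1 of 9 above and 4 below). The 3 primitive red cell genes differed most, by 2.50 and 2.21. Pan-GABAergic genes were at 0.08 and -0.09 (1 of 7 above and 1 below). Lateral and caudal eminence genes were at 0.02 and 0.10 (2 of 10 above and 2 below), and endothelial genes at 0.07 and -0.06 (4 of 8 above and 1 below). Cortical excitatory neuron genes, of a tissue that also makes Sox6, Satb1 and Zeb2, were at -0.0052 and -0.032 (4 of 10 above and 2 below). Means near 0 in these lists thus hold genes that moved in either direction. The part of these tissues in the levels of the 8 genes was not tested.

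**Figure D4:**
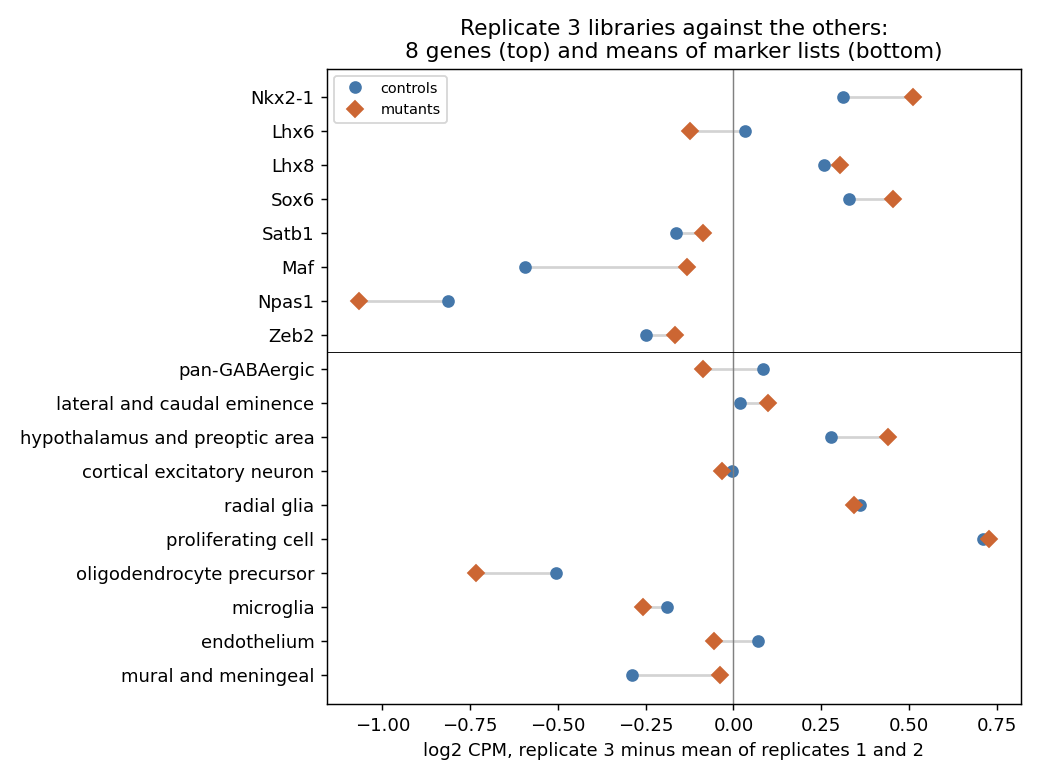
Log2 CPM of replicate 3 minus the mean of replicates 1 and 2, for controls (circles) and mutants (diamonds). The 8 genes are above the line and the means of the marker lists below it, without the primitive red cell list. Nkx2-1, Lhx8 and Sox6 lie on the side of the proliferating cell, radial glia and hypothalamic lists, and Npas1 and Zeb2 on the other side.

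Each gene was also expressed relative to the mean log2 level of 7 pan-GABAergic genes (Dlx1, Dlx2, Dlx5, Dlx6, Gad1, Gad2 and Slc32a1) of the same library. That mean itself ranged over 0.43 log2 units among the controls, and was lowest in control replicate 1. Lhx6 stood at 0.64, 0.57 and 0.56 log2 units above it in the controls and 0.56, 0.67 and 0.58 in the mutants. Its range over the 6 libraries narrowed from 0.37 log2 units in CPM to 0.11 in this ratio. Among 12756 genes averaging 5 CPM or more, 0.0235% kept a ratio this constant: Lhx6, 6430571L13Rik and Snrpa, the others named here after their values were seen. The median range of those genes was 0.55. With each of the 7 reference genes left out in turn, the range of Lhx6 was 0.095 to 0.18 and the share of genes as constant 0.0157% to 0.212%, the latter without Slc32a1. Against the 4 Dlx genes alone the range was 0.19, and against Gad1, Gad2 and Slc32a1 alone it was 0.11. The measure of constancy and the alternative reference sets were chosen after the data were seen, and Lhx6 was singled out among the 8 by its value.

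The other 7 genes did not keep such a ratio, with ranges of 0.62 for Nkx2-1, 0.65 for Lhx8, 0.62 for Sox6, 0.51 for Satb1, 0.73 for Maf, 1.30 for Npas1 and 0.48 for Zeb2. Mutant libraries minus control libraries, in this ratio, were 0.01 for Lhx6, 0.05 for Nkx2-1, 0.14 for Lhx8, 0.24 for Npas1, -0.08 for Maf, -0.11 for Sox6, -0.19 for Zeb2 and -0.22 for Satb1. Control and mutant values overlapped for each of the 8. Leaving out 1 library at a time moved these differences over -0.022 to 0.037 for Lhx6, -0.15 to 0.16 for Nkx2-1, 0.012 to 0.23 for Lhx8 and -0.059 to 0.57 for Npas1. The same ranges were -0.31 to 0.058 for Maf, -0.29 to 0.0050 for Sox6, -0.30 to -0.075 for Zeb2 and -0.31 to -0.13 for Satb1, so the sign held for Lhx8, Zeb2 and Satb1.

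**Figure D5:**
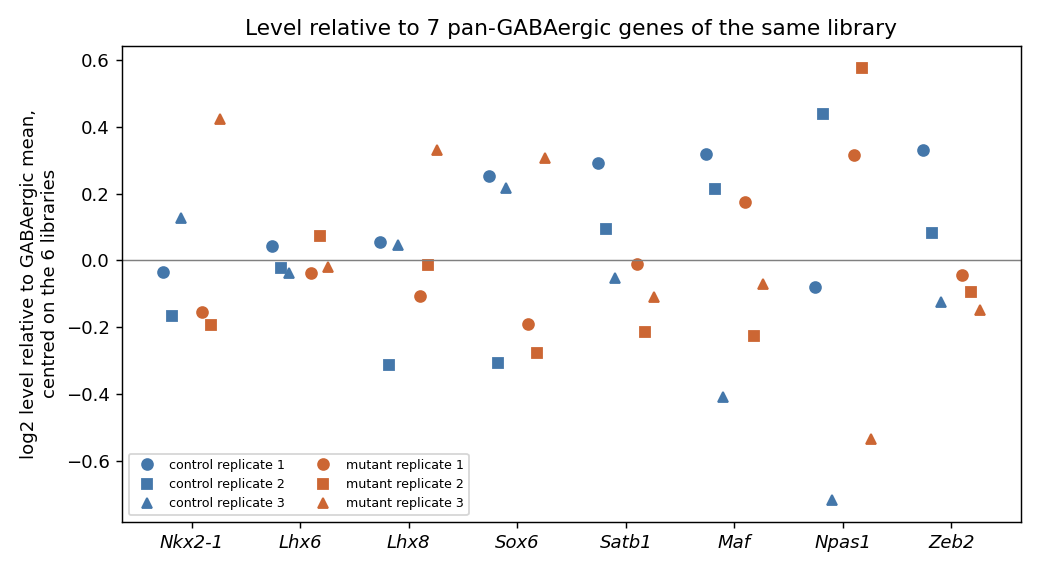
Log2 level of each gene relative to the mean of 7 pan-GABAergic genes in the same library, centred on the mean of the 6 libraries, with genotype as colour and replicate as marker shape. The Lhx6 points span 0.11 log2 units, and those of the other 7 genes 0.48 to 1.30.

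Profiles over the 6 libraries were compared by the mean absolute difference of centred log2 CPM, with 12763 genes averaging 5 CPM or more. Among the 8, Satb1 and Zeb2 were the closest pair (0.053), with both highest in control replicate 2, followed by Nkx2-1 and Lhx8 (0.11). Satb1 and Maf came next (0.12), and Sox6 was 0.12 from Lhx8 and 0.13 from Nkx2-1. Over all genes, the nearest profiles were Irs2 (0.014) and Tmem39b (0.021) for Lhx6, Wasf3 (0.016) and Fam210b (0.020) for Zeb2, and Prr5l (0.028) and Gm21897 (0.035) for Nkx2-1. Rpp40 (0.021) and Gon7 (0.027) were nearest to Lhx8, Gm38252 (0.018) and Gm37584 (0.020) to Sox6, and Fam171b (0.026) and Cd47 (0.027) to Satb1. Nebl (0.036) and Gm32444 (0.038) were nearest to Maf, and Dlk2 (0.16) and Nr3c2 (0.17) to Npas1. This distance is not scaled to a gene's own range, so the larger values of Npas1 do not show that it lacked a similar profile. Its range was 1.32 log2 units, against 0.37 (Lhx6) to 0.75 (Maf) for the others of the 8.

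Other genes of the lineage showed no call either. Of 57 listed genes, 56 were tested, 34 lay above 0 and 22 below, 0 passed the threshold, and their median log2 fold change was 0.03, or -0.03 with scaling to the pan-GABAergic genes. The untested gene was Pvalb, the parvalbumin gene, at 0.0787 CPM or less in each library. An unadjusted p under 0.05 was reached by 2 of the 56, and in 4 of them the groups did not overlap (2 higher and 2 lower), to be read against the 1.92% and 6.89% of all genes.

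Among the 8 sonic hedgehog and ventral patterning genes 3 lay above 0 and 5 below, with a median of -0.01. Nkx6-2, a homeobox gene of ventral progenitors, stood at 0.599, 0.446 and 0.738 CPM in the controls and 0.879, 0.906 and 1.33 CPM in the mutants. It had 0.77 ± 0.30 (log2 fold change, SE; adjusted p = 0.9999 by edgeR), with groups that did not overlap. Its counts were low, 11 to 28 in a control library and 23 to 36 in a mutant library. The hedgehog receptor gene Ptch1 had -0.10 ± 0.10. Of the 10 progenitor factor genes 6 lay above 0 (median 0.04), with Gsx1 at -0.37 ± 0.34 and Olig1, also an oligodendrocyte lineage gene, at 0.38 ± 0.45. Of the 12 postmitotic interneuron factor genes 9 lay above 0 (median 0.07), with the zinc-finger gene Sp9 at 0.33 ± 0.19.

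Of the 8 pallidal and cholinergic genes 6 lay above 0, with a median of 0.21. Zic2, a zinc-finger gene of the septum and basal forebrain, stood at 35.5, 42.9 and 41.6 CPM in the controls and 48.8, 44.3 and 47.6 CPM in the mutants, or 0.23 ± 0.10. Chat, which encodes the enzyme of acetylcholine synthesis, was at 0.369 to 0.405 CPM in controls and 0.184 to 0.246 CPM in mutants, or -0.79 ± 0.36. Its counts were low, 10 to 14 in a control library and 5 to 7 in a mutant library. The groups did not overlap in either gene, and neither passed (adjusted p = 0.9999 for each, edgeR).

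Of the 9 migration and receptor genes 3 lay above 0 (median -0.04). Ackr3, a scavenging chemokine receptor gene of migrating interneurons, stood at 30.0 to 30.9 CPM in controls and 27.3 to 29.0 CPM in mutants, or -0.13 ± 0.09, and the receptor kinase gene Kit had -0.09 ± 0.11. In replicate 3 of both genotypes 6 of these 9 genes lay below the other 4 libraries, the side of Zeb2 and Npas1. Of the 9 tested effector genes 7 lay above 0 (median 0.06), with the neuropeptide genes Sst at 0.46 ± 0.22 and Npy at 0.38 ± 0.23. Sst stood at 8.27, 11.6 and 7.96 CPM in the controls and 13.6, 15.4 and 9.03 CPM in the mutants, with mutant replicate 3 inside the control range.

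The list medians moved with single libraries, some of them enough to change sign. Leaving out 1 library at a time, the median ranged from -0.14 to 0.086 for the hedgehog and patterning list, from -0.11 to 0.086 for the progenitor list and from -0.11 to 0.030 for the migration list, changing sign in each. It ranged from 0.0064 to 0.15 for the postmitotic list, from 0.090 to 0.23 for the pallidal and cholinergic list and from 0.050 to 0.091 for the effector list. Control replicate 1 gave the lowest value of 5 lists when left out, the exception being the migration list, lowest without control replicate 3. With the GC and length trend removed, the pallidal and cholinergic median was 0.12.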

How the data were processed

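The deposited values are raw read counts per gene from 6 mouse forebrain libraries, 1 column each. Per the labels' design text and the submitters' processing notes, reads were aligned with HISAT2 to GRCm38, with SAMtools 1.9, and counted with HTSeq 0.9.1. The kit was a stranded total RNA kit with ribosomal RNA depletion, per the labels, which also name the molecule polyA RNA. HTSeq's strand setting was not given in the sources used here. Symbols and lengths came from GENCODE M21 (GRCm38), which named 32888 of 33084 identifiers.

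Genes were kept by filterByExpr (count minimum 10, total minimum 15; 19616 genes), scaled by TMM and tested with edgeR 4.0.16's quasi-likelihood F test (robust, no covariate, Benjamini-Hochberg, threshold 0.05) in R 4.3.3. Standard errors came from the F statistic, and log2 CPM used a prior count of 2. Alternatives used DESeq2 1.42.0 and limma 3.58.1, other scalings and filters, and fewer libraries. Figures used matplotlib 3.10.9.

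The 8 genes and all lists were chosen with earlier results of these data known. Named were the 8 genes, Dyrk1a, the 2 genes with the smallest p per lineage list and the 2 nearest profiles per gene; some items are not reported here.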

Additional observations from a re-analysis of the deposited data

How the results depend on the processing

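Over 17 alternative analyses of each of the 8 genes, 122 of 136 log2 fold changes kept their direction and 0 passed the threshold (smallest adjusted p = 0.554). Those that turned belonged to Sox6, Maf, Nkx2-1 and Lhx6. With the GC and length trend removed Sox6 was at 0.023 and Maf at 0.016, and with that trend removed and a replicate block at 0.020 and 0.036. Maf was at 0.011 in limma-voom and 0.036 with sample weights. Leaving out 1 library at a time, Nkx2-1 ranged from -0.064 to 0.25, Lhx6 from -0.018 to 0.16, Sox6 from -0.20 to 0.093 and Maf from -0.20 to 0.16. The median of the 8 genes ranged from -0.023 to 0.15 in the same way, the latter without control replicate 2, and relative to the pan-GABAergic genes it was -0.03, or -0.14 with only replicates 1 and 2.

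Replicate numbers paired the libraries only in part. Correlations of deviations between libraries of the same number were 0.241, 0.071 and 0.355 for replicates 1, 2 and 3. Control replicate 3 was closest to mutant replicate 3, but control replicate 2 was closest to mutant replicate 1 (0.348). With the replicate block 0 genes were called, Lhx8 was at 0.21 and Zeb2 at -0.13. The number of genes at an unadjusted p under 0.05, 376, was 765 with the block and 1063 with the block and the GC and length trend removed. It was 1544 with only replicates 1 and 2 and 1904 with sample weights. Without a count filter it was 587, but over more genes, all except the 2034 with 0 in every library. It ranged from 179 (without control replicate 1) to 1060 (without control replicate 3) when leaving out 1 library, with 245 without mutant replicate 2 and 689 without mutant replicate 3. Called genes numbered 3 with only replicates 1 and 2 (Hist1h2ag, Pisd-ps1 and Tmem181b-ps) and 1 with scaling to the pan-GABAergic genes (Scand1), none of them among the 8 and all named after their values were seen. The cause was not tested for any of these. Intervals limit what can be seen: they allow a change of 25.1% for Lhx6 and 132% for Npas1.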
